A study of Mus musculus with 12 samples.

Results

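The ubiquitin genes described here are those whose symbol starts with Trim, Rnf, Fbxo, Fbxl, Fbxw or Usp before a digit, or with Ube2 before a letter, in any of 3 deposited lists: mRNAs captured with the microRNA Mirlet7d, promoter-associated non-coding RNAs (ncRNAs) captured with it, and genes nearest to its chromatin peaks. They numbered 81 of the 5714 genes named in these lists. Of these, 15 stood on the mRNA list (21 of 1964 transcripts), 32 on the promoter ncRNA list (44 of 2432 ncRNAs) and 42 on the peak list (61 of 4286 peaks). The rule works on names, and so it also took Usp6nl, a GTPase-activating protein with no protease activity, Fbxl12os, which RefSeq lists as a transcribed pseudogene, Fbxo18, now Fbh1, a DNA helicase with an F-box, and Ube2cbp, which encodes a ligase that binds an E2 enzyme.

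The study used MLE-12 cells, a mouse lung epithelial line immortalised with a viral large T antigen. For the pull-down, cells were transfected with 25 nM of biotinylated Mirlet7d and harvested after 48 h, and the RNA held on streptavidin beads was sequenced beside an input library from the same cell line. For ChIRP-seq, which recovers the DNA attached to an RNA, chromatin was incubated for 4 h with 150 pmol of biotinylated probes against mature Mirlet7d, and the sample's label also names Mirlet7d gain-of-function. Each of the 12 libraries of the series is alone in its group, and the tables of 2 of them were analysed here, so no value below has a replicate and no difference between conditions was tested. No list from a capture with a random microRNA or unrelated probes was analysed here. On the mRNA list, 1 of 13 lung epithelial markers (Lamp3) and 4 of 9 markers of other cells (Col1a2, Kdr, Tek and Mrc1) were present. Since the list holds only transcripts with a fold of 2.5 or above, absence from it says nothing of expression, and the line's identity was not tested.

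Ubiquitin is passed from an E1 activating enzyme to an E2 conjugating enzyme (the Ube2 genes) and then, with the help of an E3 ligase, to a substrate. Most Rnf and Trim proteins are RING ligases, which hold the loaded E2 beside the substrate, and F-box proteins (Fbxo, Fbxl and Fbxw) are the substrate receptors of cullin ligases. Ubiquitin-specific proteases (Usp) remove the tag again. Mirlet7d belongs to the let-7 family of microRNAs, which pair with RNAs mainly through the seed, bases 2 to 8 of the mature strand. Its 5p strand carries the let-7 family seed and its 3p strand another one, and both strands are printed because the lists do not say which strand the captured RNAs met. The hairpin lies on mouse chromosome 13, minus strand, with the 5p strand at chr13:48536078-48536099 and the 3p strand at chr13:48536024-48536045 (RefSeq, GRCm38.p6). Capitals mark the seeds.
mmu-let-7d-5p: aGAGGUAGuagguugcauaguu
mmu-let-7d-3p: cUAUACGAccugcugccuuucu

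The peak list held 51.9% of the members, beside 55.9% of all listed genes. The promoter ncRNA list held 39.5% of them, beside 28.4% of all, and the mRNA list 18.5%, beside 26.4% of all. By family (the bar plot of listed shares), 12 Usp genes were on the peak list, 6 on the promoter ncRNA list and 2 on the mRNA list. Trim genes numbered 9, 7 and 2 on the same lists, Rnf genes 9, 9 and 6, and Ube2 genes 2, 3 and 4. No Fbxo gene was on the mRNA list, against 3 with a promoter ncRNA and 5 with a peak. Fbxl genes numbered 1 on the mRNA list, 4 on the promoter ncRNA list and 4 on the peak list, and the Fbxw family had Fbxw11 alone, with 1 peak. Differences between families were not tested.

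As a share of the 321 protein-coding RefSeq genes that the rule takes, 24.9% were on any list, beside 24.2% of all 21031 protein-coding genes. On the mRNA list stood 4.98% of them (exact 95% Clopper-Pearson interval 2.88 to 7.97), beside 7.15% of all protein-coding genes. This count of 16 includes Rnf225, which the list names 2310014L17Rik and which the rule on listed names therefore does not take. For promoter ncRNAs the share was 9.35% (6.39 to 13.1), beside 6.56% of all. The peak list held 13.1% (9.60 to 17.3), beside 13.3% of all. By family, the share nearest to a peak was highest for the Fbxl genes, 22.2% (4 of 18, interval 6.41 to 47.6), followed by the Usp genes, 21.4% (12 of 56, interval 11.6 to 34.4), and lowest for the Fbxw genes, 4.35% (1 of 23, interval 0.110 to 21.9). The group as a whole was thus listed about as often as protein-coding genes in general on the peak list, and each interval covers the counting of genes only.

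**Figure D1:**
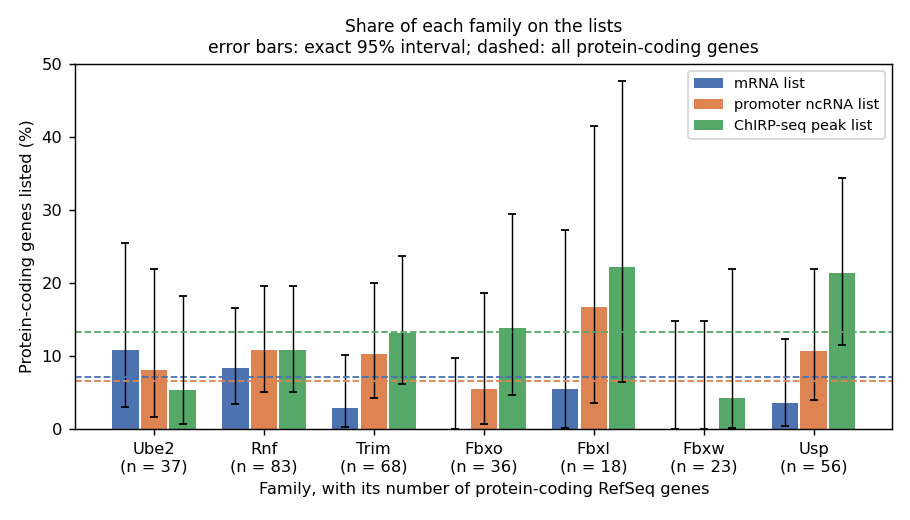
Bars give the percentage of each family's protein-coding RefSeq genes on the mRNA, promoter ncRNA and ChIRP-seq peak lists, with exact 95% intervals as error bars and dashed lines at 7.15%, 6.56% and 13.3% for all protein-coding genes. The Usp bar for peaks stands at 21.4%, and Fbxo and Fbxw have no bar on the mRNA list.

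Abundance was deposited as RPKM over the whole span of a transcript, introns included, and the fold divides the pull-down RPKM by the input RPKM. Every fold given for an RNA is the one in the authors' deposited table unless said otherwise. Many are given with a 95% exact interval computed here from the reads behind them, and a fold printed without one is no more certain. That interval covers counting error between 2 libraries and says nothing of replicates. The member transcripts had a median input of 0.015 RPKM and a median pull-down of 0.059 RPKM, beside 0.014 and 0.1375 RPKM over the whole mRNA list. Their median fold was 4.29, beside 4.93 over the list. Deposited folds above 10 were held by 7 of 21 member transcripts (33.3%), from 5 of the 15 genes, beside 26.4% of all listed transcripts. The interval lay wholly above 2.5, the lowest listed fold, for 10 of 21 (47.6%), beside 55.2% of the listed transcripts with an interval. Neither share stood far from the background.

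Among the E2 enzymes, Ube2r2, which works with SCF ligases, was at 1.04 RPKM in the input and 2.616 RPKM in the pull-down, a fold of 2.52 (interval 2.37 to 2.67). Ube2d1, an E2 that serves many RING ligases, was at 0.19 and 0.492 RPKM, a fold of 2.59 from 137 input and 626 pull-down reads, with 3.14 as the upper end of its interval. Both intervals reach below 2.5, so these transcripts cannot be placed on either side of the list's own limit. Ube2f, the E2 that carries the ubiquitin-like protein NEDD8, had the family's highest mRNA fold, 37, from 0.001 to 0.037 RPKM. It rested on 1 input read and 55 pull-down reads (interval 5.37 to 1255), and the reads themselves give 31.2, since the deposited RPKM is rounded to 3 decimals. Ube2cbp went from 0.046 to 0.204 RPKM, a fold of 4.43 (3.76 to 5.27).

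Of the 6 Rnf genes, Rnf112, a RING protein with a GTPase domain known from the brain, had the highest fold. All 3 of its transcripts (chr11:61261944-61267608 in mm9 for the longest) were at 0.015 RPKM in the input, and at 0.727 to 0.74 RPKM in the pull-down, with folds of 48.47 to 49.33. They are a single observation, since all 3 spans hold the same 2 input and 173 pull-down reads (interval 13.4 to 409). Rnf144b, a RING-between-RING ligase, had a fold of 24 (5.27 to 1255) in its shorter transcript, from 1 input and 54 pull-down reads, and 5.5 (2.06 to 21.7) in the longer one that contains it. Rnf135, which ubiquitinates the RNA sensor RIG-I, was better covered, at 0.174 and 0.738 RPKM with 66 and 493 reads, a fold of 4.24 (3.27 to 5.57). Rnf25 was the most abundant member mRNA in both libraries, at 1.25 RPKM in the input and 3.124 RPKM in the pull-down, and its fold of 2.5 (2.16 to 2.90) is the lowest the list holds. The 3 overlapping transcripts of Rnf32 had folds of 3.88 to 4.29. Rnf125, another regulator of RIG-I, had a fold of 3.5 with an interval of 0.681 to 31.3, the single member transcript whose interval reaches below 1.

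Both Trim mRNAs had folds above 10 from 1 input read each. Trim62 was at 0.002 and 0.059 RPKM, a deposited fold of 29.5 (interval 6.80 to 1569), and its reads, 1 and 69, give 39.2. Trim67 was at 0.001 and 0.012 RPKM, a fold of 12 (1.92 to 493) from 1 and 21 reads. All 7 member transcripts above a fold of 10 had 1 or 2 input reads. The highest member folds below it, 5.5 for Rnf144b, 4.43 for Ube2cbp and 4.29 for Rnf32, rested on 5 to 173 input reads. No share over the whole list stands beside these counts.

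The single F-box mRNA was Fbxl2, at 0.133 RPKM in the input and 0.538 in the pull-down, a fold of 4.05 (3.42 to 4.80). Among the proteases, Usp42 was at 0.691 and 2.129 RPKM with 362 and 1964 reads, a fold of 3.08 (2.75 to 3.45). Usp43's 2 transcripts share their span and were at 0.022 and 0.057 RPKM, a fold of 2.59 (1.76 to 3.93). In the plot of RPKM by transcript, the members with the highest RPKM (Rnf25, Ube2r2 and Usp42) lie at the right with short lines, and those with inputs of 0.001 or 0.002 RPKM lie at the left with lines of very unequal length.

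**Figure D2:**
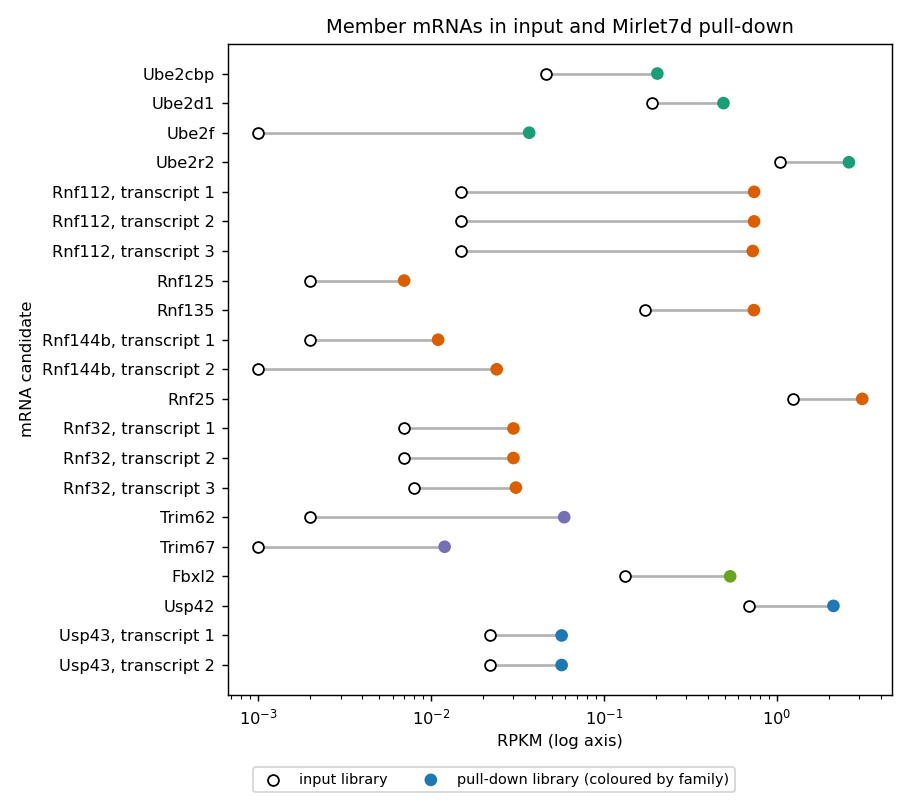
Each line joins the RPKM of a member transcript in the input library (open circle) and in the pull-down library (filled circle, coloured by family) on a log axis. The longest lines, those of Rnf112, Ube2f and Trim62, start at inputs of 0.015, 0.001 and 0.002 RPKM.

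Promoter-associated ncRNAs were deposited with the gene whose promoter they lie at, and their RPKM was not compared with that of mRNAs because the 2 tables have different read totals. At member genes the median fold was 4.485, beside 5.125 over the whole list. Several genes have more than 1 ncRNA, some of which share their reads. With only the ncRNA of highest pull-down RPKM kept per gene, the member median was 5.445. No such median was taken over the whole list, so members cannot be placed below it. Folds above 10 were found for 8 of 44 (18.2%), beside 25.0% of all promoter ncRNAs. In 9 of the 44 (20.5%) the input is exactly 1 RPKM, beside 18.8% of the list. Only 30.6% of all inputs of 1 give a whole number of reads, so they are treated as stand-ins for a missing value, and a fold over them is the pull-down RPKM itself. For 6 genes (Ube2g1, Rnf14, Rnf6, Trim6, Fbxo7 and Usp32) every listed ncRNA is of this kind. Of the 35 others, 17 had an interval wholly above 2.5 (48.6%), beside 51.9% of the list. All 35 had one above 1, but every listed fold is 2.5 or above, and no share over the list stands beside this count.

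Ube2c, the E2 of the anaphase-promoting complex, had 4 ncRNAs on chromosome 2. A short one of 662 bases (chr2:164596467-164597129, mm9) was at 2.033 RPKM in the input and 49.252 in the pull-down. It had 13 and 488 reads and a fold of 24.23 (10.8 to 56.6). The other three end before it starts and share their reads with each other. They were at 1.814 to 1.818 RPKM in the input with a fold of 2.67 (2.21 to 3.24). The intervals of the short and the long ncRNAs do not overlap, so the promoter held ncRNAs with unequal ratios. Ube2e3, another E2, had a fold of 6.5 (3.82 to 11.9), and Ube2g1 was at 3.017 RPKM in the pull-down over an input of 1.

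Among the Rnf genes, the highest fold with an interval was 6.29 (3.96 to 10.0) at Rnf8, a ligase of the DNA damage response, from 1.333 to 8.384 RPKM. RefSeq gives the accession on that row to the gene Gm28043, so the assignment to Rnf8 is uncertain. Rnf7, the RING partner of cullins, followed at 5.95 (3.61 to 9.89), from 0.81 to 4.821 RPKM. Rnf4, which ubiquitinates SUMO-tagged proteins, had 3 ncRNAs that overlap, with folds of 2.89 to 3 and pull-down levels of 10.13 to 19.317 RPKM. Rnf13, Rnf115, Rnf19b and Rnf145 had folds of 4.37, 3.94, 3.64 and 2.55, and the interval of Rnf19b ran from 1.06 to 19.5. Rnf6 was listed at 10.16 and 3.71 and Rnf14 at 8.73, each over an input of exactly 1 RPKM.

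Of the 9 Trim ncRNAs, 4 had a fold above 10, at Trim11 (2 ncRNAs), Trim65 and Trim2, beside 25.0% of all promoter ncRNAs. They are 4 of the 8 such ncRNAs at member genes, and differences between families were not tested. Trim11's 2 ncRNAs start at the same base and the shorter lies within the longer, so they are not separate observations. The longer went from 0.608 to 14.433 RPKM (fold 23.74, interval 9.07 to 88.2) and the shorter from 0.73 to 16.165 RPKM (22.14, 7.37 to 72.2). Trim65, which ubiquitinates the RNA sensor MDA5, went from 0.766 to 12.2 RPKM with 12 and 296 reads, a fold of 15.93 (7.14 to 44.1). Trim2, a ligase for neurofilament light chain, had a fold of 14.66 (3.88 to 126). At the other end, Trim14's 2 ncRNAs were the most abundant of the family in the input, at 8.199 and 13.394 RPKM, and had folds of 2.52 and 2.66. Trim37 had a fold of 3.37, Trim43b a fold of 6 over a span of 528894 bases, and Trim6 was at 6.986 RPKM over an input of 1.

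Fbxl12 had the highest fold of all member ncRNAs, 24.54 (6.56 to 206), from 0.386 to 9.474 RPKM with 4 and 152 reads at chr9:20449278-20450350 (mm9). Its neighbour Fbxl12os, 27563 bases away, was listed at 6.39 (2.31 to 18.8) and, over an input of 1, at 4.14. Fbxo47 was at 12.5 with 2 input and 38 pull-down reads (1.95 to 510), and Fbxl20 at 8.37 with 2 and 26 reads (1.26 to 357). Fbxo18 and Fbxl2 had folds of 3.56 and 3.19, and Fbxo7, a receptor linked to parkinsonism, was at 4.641 RPKM over an input of 1. The 3 highest folds of the F-box genes rested on 2 or 4 input reads.

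None of the 8 Usp ncRNAs passed a fold of 10, beside 25.0% of all promoter ncRNAs, a count too small to read a difference from. Usp11 was at 7.94 (3.25 to 25.5), just below the limit with Fbxl20 and Rnf14, while Rnf6, Fbxo47 and Trim2 stood just above it. Usp24 was at 7.09 from 2 input reads (1.03 to 306). Usp16, which removes ubiquitin from histone H2A, had 2 overlapping ncRNAs at 6.47 (4.16 to 10.1) and 2.85 (2.04 to 4.10). Usp33 was at 4.6 (3.48 to 6.21) and Usp15 at 3.92 (1.67 to 11.5), and Usp32 was at 4.94 and 3.79 over an input of 1.

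**Figure D3:**
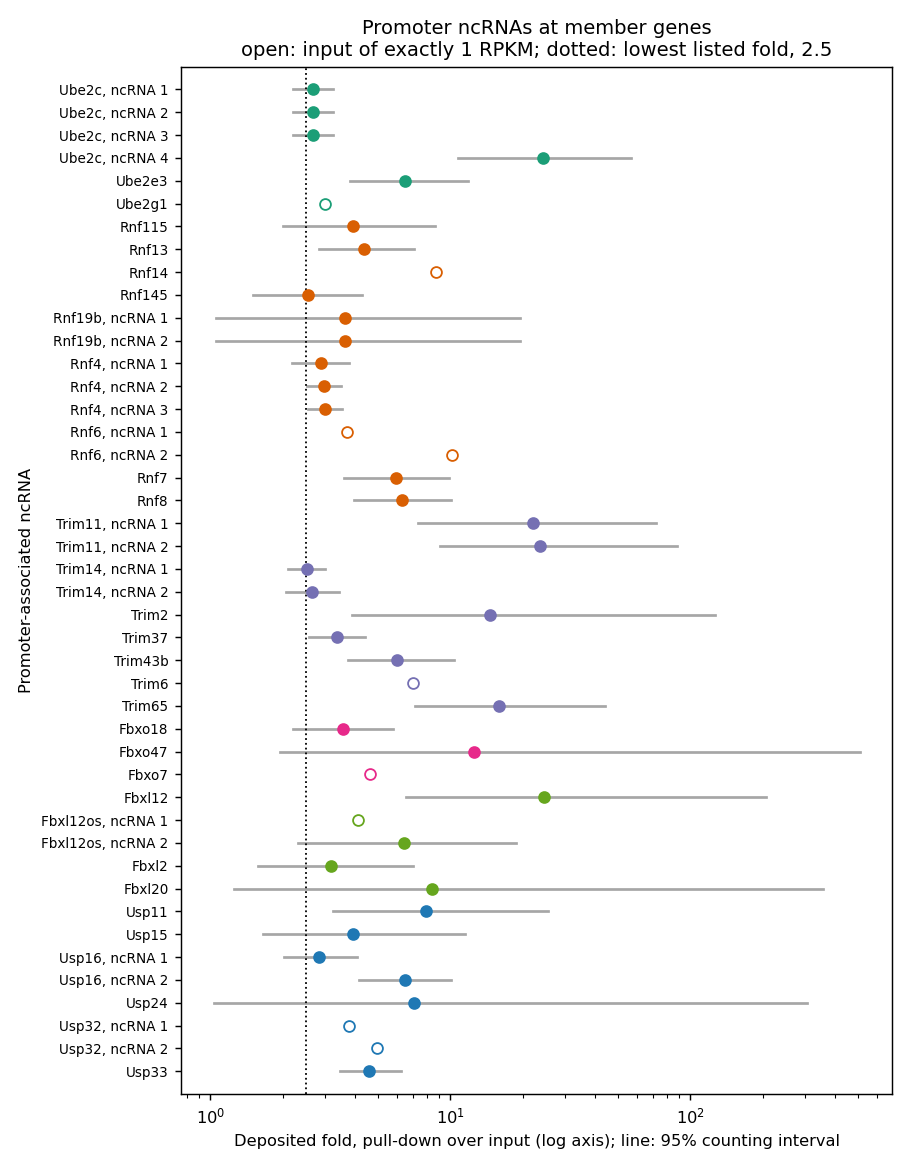
Points give the deposited fold of each promoter ncRNA at a member gene on a log axis, coloured by family, with the 95% counting interval as a line. Open points have an input of exactly 1 RPKM and no interval, and the dotted line marks 2.5. The intervals of Fbxo47, Fbxl20 and Usp24, with 2 input reads each, are the widest.

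ChIRP-seq peaks carry the authors' own MACS score, used here to rank peaks within the list and not as a measure of change. The median score of the 61 member peaks was 33.88, beside 34.3 over all peaks, and scores of at least 40 were held by 16 (26.2%), beside 24.8% of all. The list starts at 30.01, and 35 member peaks (57.4%) scored below 35, beside 55.2% of all. Peaks within 10 kb of a transcription start site (TSS) numbered 28 (45.9%), beside 42.6% of all. The authors' annotation put 29 member peaks (47.5%) in introns, beside 42.6% of all peaks, and 22 (36.1%) between genes, beside 40.0%. Transcript ends held 3 (4.92%, beside 1.98%), exons 2 (3.28%, beside 3.76%) and a 5′ UTR 1 (1.64%, beside 0.397%), counts too small to read a difference from. The promoter class held 4 (6.56%), beside 9.45% of all peaks. An annotated repeat was named for 11 member peaks (18.0%), beside 23.6% of all.

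Nearest gene does not mean host gene. Of the 39 member peaks that the authors placed in or at the end of a transcript, 29 lay in the member gene itself and 10 in another gene, by the transcript accession. This split was not counted over all peaks, so it is not read as a trait of the members. The peaks nearest to Rnf114 (47.08), Ube2u (31.64), Rnf148 (33.21 and 33.5) and 1 of the 2 nearest to Trim75 (33.09) lay in introns of Spata2, Ror1, Cadps2 and Tmem192. The promoter peak listed for Fbxo8 (31.51, 301 bases after its TSS) was annotated to the promoter of Cep44, and that of Usp6nl (33.88) to the end of A230108P19Rik. The other 3 are peaks nearest to Trim8.

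Trim8, a RING ligase known as a partner of SOCS1, had 7 peaks over 65569 bases of chromosome 19, and 7 of the 3192 genes on the list had more. The highest, at chr19:46576564-46579221 (mm9) in intron 1 of Trim8, scored 145.55, rank 28 of all 4286 peaks. A neighbouring peak in the same intron scored 59.11, and one 1885 bases before the TSS scored 35.06. Further upstream, peaks of 90.85, 42.58 and 35.96 lay in introns of Sufu, an inhibitor of hedgehog signalling, and a peak of 33.54 lay between genes, 18580 bases after the TSS. Fbxo47 had 5 peaks over 44535 bases of chromosome 11, at 30.82 to 40.88. The remaining 40 genes had 1 to 3 peaks, and 32 of the 42 (76.2%) had 1. Over the whole list, 721 of the 3192 genes had 2 or more peaks.

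**Figure D4:**
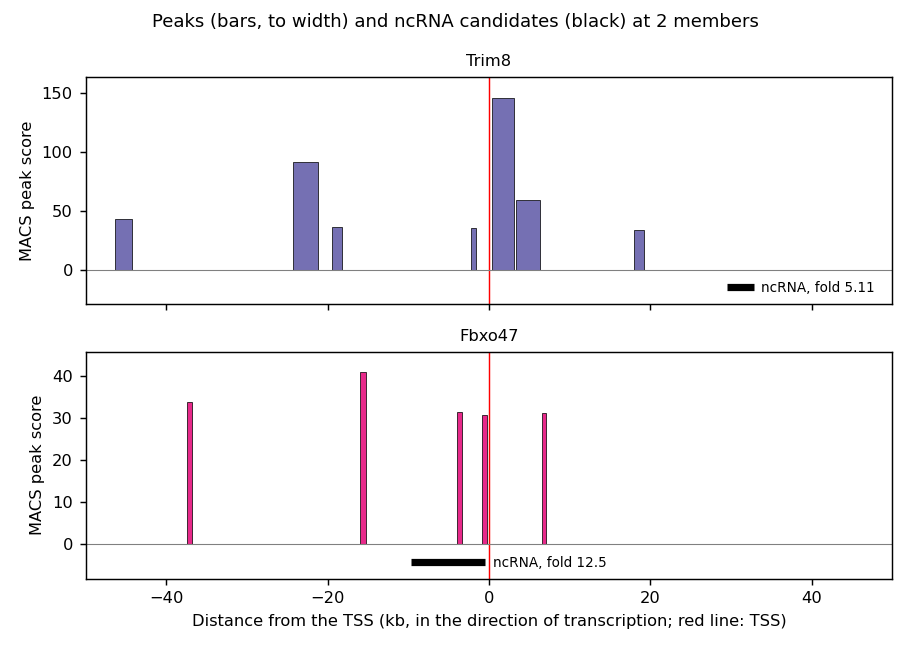
Bars show the ChIRP-seq peaks nearest to Trim8 (upper) and Fbxo47 (lower), with their MACS score as height and their width to scale against the distance from the TSS in kb, and black lines show promoter or other ncRNA candidates. The Trim8 peak of 145.55 lies within 4 kb after the TSS, and 2 Fbxo47 peaks overlap an ncRNA of fold 12.5.

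Among the ligases, Trim65 had a peak of 66 in its first exon (chr11:115991346-115992686), Rnf181 a peak of 63.33 in its first intron, 197 bases after the TSS, and Rnf43, which removes Wnt receptors from the cell surface, a peak of 60.43 in its 5′ UTR. Trim24, a chromatin-binding ligase of p53, had peaks of 48.53 and 38.17 at 41004 and 64535 bases before the TSS. Trim25, a ligase of RIG-I, had peaks of 33.52 and 32.17 in its introns. Trim47 and Trim40 had 35.25 and 35.07. The E2 genes had 32.83 in intron 1 of Ube2h and 31.64 for Ube2u, both below the median of all peaks. Trim56, an antiviral ligase, had a promoter peak of 32.22. Among the F-box genes, Fbxl20 had 43.72 in intron 1, Fbxo21 37.15, Fbxl15 34.78 and Fbxl14 31.09 in its promoter, and Fbxw11, a beta-TrCP receptor, had 30.22.

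The proteases ranged from 31.03 to 89.3. Usp36, a nucleolar protease, had the family's highest peak at chr11:118150068-118152065 in intron 1 (rank 67 of all peaks) and another of 31.03 in intron 13. Usp18, which removes the ubiquitin-like protein ISG15, had a peak of 51.65 in intron 4. Usp38 had 45.47, 36.13 and 31.63, and Usp17le had 43.77 on an endogenous retroviral repeat. Usp43 (41.52), Fbxo47 (40.88) and a Trim8 peak (42.58) stood just above a score of 40, and Trim24 (38.17), Usp10 (37.82) and Fbxo21 (37.15) just below. Usp7, the protease of the p53 and Mdm2 pair, and Usp44, known from the mitotic checkpoint, had 31.18 and 31.28, near the bottom of the list. The peaks of Rnf157, Rnf216, Rnf223, Trim55, Fbxo25, Fbxo31, Fbxl4, Usp3 and Usp12 scored 30.42 to 36.61.

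**Figure D5:**
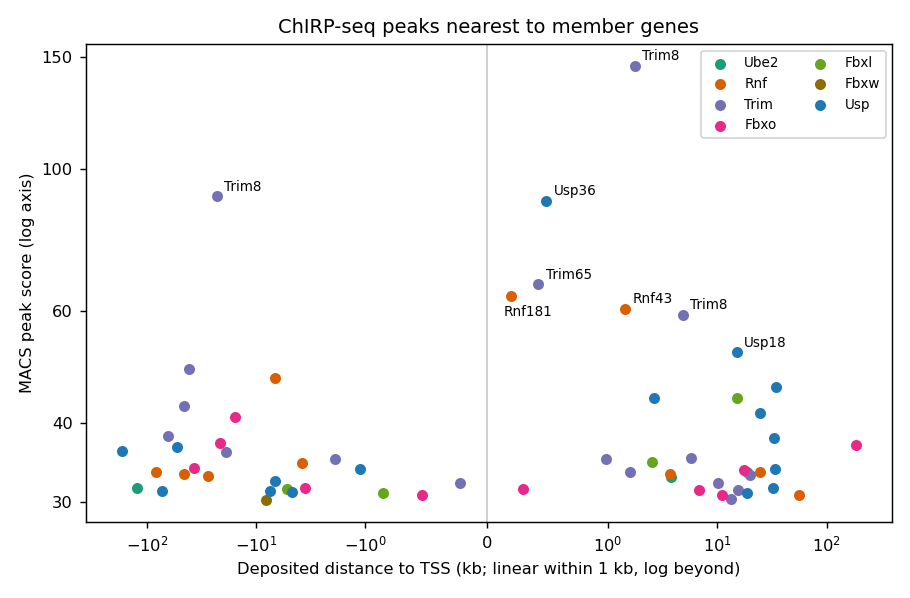
Each point is a ChIRP-seq peak nearest to a member gene, by its distance to the TSS in kb (linear within 1 kb, log beyond) and its MACS score on a log axis, coloured by family. The 8 named points score above 50, and 6 of them lie within 5 kb of the TSS.

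Chromosomes 6, 8, 11, 16 and 19 hold 62.2% of all peaks and held 45 of the 61 member peaks (73.8%). Without Trim8 and Fbxo47 the member share was 33 of 49 (67.3%). Chromosome 11 alone held 17 member peaks from 11 genes (27.9%), beside 14.6% of all peaks. Neighbouring genes share these stretches: Trim47 and Trim65 were 22668 bases apart in the lists, Fbxl15 and Trim8 124027 bases, and Fbxo47 and Fbxl20 212383 bases. The listed genes therefore cannot all be taken as independent of each other. Whether neighbours share signal was not tested, nor was the copy number of these chromosomes in the line.

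The upstream windows of Usp36 and Trim56 lay inside their peaks, as judged from the deposited distances to the TSS, and are printed to show how different these promoters are. They are the 250 bases before the gene start in RefSeq (GRCm38.p6, minus strand, chr11:118290245-118290494 for Usp36 and chr5:137116208-137116457 for Trim56), with CG dinucleotides in capitals.
Usp36: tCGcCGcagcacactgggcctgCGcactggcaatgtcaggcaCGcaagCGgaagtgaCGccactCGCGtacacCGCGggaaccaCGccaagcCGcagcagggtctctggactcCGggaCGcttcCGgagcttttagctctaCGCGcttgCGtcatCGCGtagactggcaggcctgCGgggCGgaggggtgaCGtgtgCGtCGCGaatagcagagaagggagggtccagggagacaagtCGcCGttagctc
Trim56: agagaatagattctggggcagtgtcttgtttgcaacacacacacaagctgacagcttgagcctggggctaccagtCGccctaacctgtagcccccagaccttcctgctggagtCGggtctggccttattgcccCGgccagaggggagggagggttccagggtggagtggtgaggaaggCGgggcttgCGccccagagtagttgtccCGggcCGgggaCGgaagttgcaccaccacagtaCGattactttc
The Usp36 window holds 28 CG dinucleotides and 65.6% G and C, and 7.61% of all 32851 promoter windows of this length hold as many or more. That of Trim56 holds 9, with 60.4% G and C, beside a median of 6 over all windows. The peak listed for Fbxl14 lies outside its window, which holds 47. Neither printed window contains the DNA form of a Mirlet7d seed on either strand. The 5p seed (GAGGTAG or CTACCTC) is in 3.23% of all windows and the 3p seed (TATACGA or TCGTATA) in 0.167%. Because 61 of the 81 members (75.3%) had a window in the table, no count over the members is given.

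Genes on 2 lists numbered 8 of 81 (9.88%), beside 10.3% of all listed genes on 2 or 3 lists, and no member was on all 3. Fbxo47 and Trim65 joined a promoter ncRNA with a close peak. At Fbxo47 the ncRNA (fold 12.5) ran from -9.66 to -0.44 kb relative to the TSS and overlapped the peaks of 30.82 and 31.58. At Trim65 the ncRNA (fold 15.93) ended 1009 bases from the peak of 66 in the first exon. Fbxl20 (8.37) and Rnf19b (3.64) also had an ncRNA and a peak, the latter with a peak of 33.01 on a simple repeat 19072 bases from its ncRNA. Rnf112 (peak 33.21) and Usp43 (41.52) had the peak within the captured transcript's own span, in introns 13 and 4. Trim67's span also held a peak, of 45.89, which the list names for 2810004N23Rik. Usp42's peak of 31.29 lay 7405 bases before its TSS. Fbxl2 was on the mRNA and the promoter ncRNA list, with spans that overlap (chr9:113885825-113935879 and chr9:113912560-113955309), so reads in the shared stretch may count for both.

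Peaks within 10 kb of any ncRNA candidate numbered 8 of 61 (13.1%), beside 12.4% of all peaks. They belong to Fbxo47 (4 peaks), Trim65, Trim24, Fbxl20 and Rnf43. The ncRNA near the Fbxl20 peak (fold 7.41, interval 1.15 to 331) lies 5048 bases away and is tied to no promoter. The promoter ncRNA of Fbxl20, with a fold of 8.37, lies 15059 bases from that peak. The Trim24 peak of 38.17 overlapped an ncRNA at 13.607 RPKM in the input and 94.748 in the pull-down (fold 6.96, interval 4.73 to 10.2), which the list ties to no promoter. The Rnf43 peak overlapped an ncRNA at 1110028F11Rik with a fold of 4.1 (3.44 to 4.93). Among the mRNAs, the spans of Fbxl2, Ube2r2 and Usp42 overlap ncRNA candidates. In Ube2r2 these had folds of 3.66 (1.06 to 19.5) and 3.14 (2.09 to 4.86), beside 2.52 for the mRNA itself. Whether the reads of these ncRNAs and mRNAs are the same molecules cannot be told from the tables.

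Other genes of the pathway were taken from 8 lists of known components, and their counts stand beside 24.2% of all protein-coding genes on any list. Rps27a, which encodes ubiquitin fused to a ribosomal protein, had a promoter ncRNA of 4.78 over an input of 1. Of 10 E1 genes 3 were listed (30.0%), Nae1 with a promoter ncRNA at 20.89 (9.47 to 57.9), Uba3, its partner in NEDD8 activation, at 13.21 over an input of 1, and Uba2 with a promoter peak of 30.27. Of 22 cullin and SCF core genes 6 were listed (27.3%), and Dcun1d5, a NEDD8 ligation factor, was on all 3 lists, with an mRNA fold of 15.29 (5.43 to 53.6), a promoter ncRNA of 4.16 and a promoter peak of 44.71. Of 25 HECT ligases 9 were listed (36.0%), among them Huwe1 (ncRNA 24.56, interval 4.14 to 994) and Hectd2 (mRNA 22.67, interval 9.03 to 100, and peak 34.14).

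Of 65 other RING ligases and adaptors, 17 were listed (26.2%). Bard1, the partner of Brca1, had an ncRNA of 37.52 (3.10 to 765) and a peak of 83.53 in an intron. Syvn1, a ligase of the endoplasmic reticulum, had an ncRNA of 12.02 (4.54 to 45.6) and a promoter peak of 43.43. Mdm2, the p53 ligase, had an mRNA fold of 3.01 (2.71 to 3.34) and an ncRNA of 17.84 over an input of 1. Znrf2 had 6 peaks, up to 59.86. Other deubiquitinases gave 8 of 32 (25.0%), with Brcc3 (ncRNA 14.13, 5.90 to 44.6) and Stambpl1 (peak 46.32) leading.

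Proteasome genes gave 15 of 47 (31.9%). A promoter ncRNA was listed for 11 of the 47 (23.4%), beside 6.56% of all protein-coding genes, a peak for 5 (10.6%), beside 13.3%, and an mRNA for 1 (Psmg4, fold 10.11; 2.13%), beside 7.15%. Psme2, a subunit of the interferon-induced proteasome activator, had the highest ncRNA fold among them, 58.77 (10.3 to 2345), and Psma1 followed at 20.96 (6.99 to 68.7). Psmb3 and Psmd3 had promoter peaks of 65.7 and 49.67. Of 8 COP9 signalosome genes, whose complex takes NEDD8 off cullins, Cops7a alone was listed (12.5%), with a peak of 61.46. The lists are of unequal size and were not tested against the other genes.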

How the data were processed

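MLE-12 libraries were analysed from the deposited mRNA, ncRNA and peak tables. The submitters' processing notes name Trimmomatic, Bowtie2, Picard 1.119, HOMER, MACS and bedtools 2.15, with mm9, and the settings are not given in the sources used here. RPKM values of input and pull-down were rounded by the authors to 3 decimals, per the file headers and values. The fold is the authors' deposited ratio of them, and their quotient matched it within 0.005. Both lists hold only folds of 2.5 and above. The peak score is the authors' deposited MACS score, with the distance to the nearest TSS as a signed number of bases and a class from HOMER.

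RPKM times span length fell on whole reads (100% of the values used, within 0.15 reads plus rounding) for denominators of 23.9 and 42.0 M reads (mRNA input and pull-down) and 9.66 and 15.0 M (ncRNA). Reads of ncRNAs were even in 79.6% of cases in the input and 70.2% in the pull-down, against 52.5% and 50.9% for mRNAs. For the intervals, ncRNA reads were counted as pairs, while the read numbers in the text are single reads. No source states the pairing. With single reads, 20 promoter ncRNAs at member genes had an interval wholly above 2.5, beside 17 with pairs. From the counted reads or pairs, a 95% exact conditional binomial interval of the ratio was computed and widened for rounding (Python 3.11.15, scipy 1.17.1, pandas 2.3.3). A check on simulated data came first. It used single reads and no cutoff on the fold, so it covers neither the pairs nor the choice of folds of 2.5 and above. PCR copies cannot be told apart, and the pull-down kit is not stated to keep strand, so sense and antisense reads are not separable.

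Members were named by the rule, all 81 matching RefSeq (GRCm38.p6, names only). In each list and family, the text names the 4 members with the highest fold or score, the 2 with the highest pull-down RPKM, all on 2 lists or with a promoter peak, the 3 on each side of a threshold, and at most 4 other pathway genes a group by fold or score. A few others were named after their values were seen. Members and lists were chosen with earlier results of these data known. Groups have 1 library each, so no test between conditions was run. Thresholds, added constants, score, distance and chromosome choices were varied. Some results of the other pathway genes are not reported here.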

Additional observations from a re-analysis of the deposited data

How the results depend on the processing

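Of 45 alternatives over 14 results, 22 stayed within the limits set and 23 moved. The counts in this section are of members only, with no share of the whole lists beside them. They show how a setting moves a result, and not how members differ from other genes. Adding 0.01 or 0.1 RPKM before the ratio lowered the median member mRNA fold to 2.51 and 1.56 and the count above 10 from 7 to 3 and 0, and requiring an input of 0.01 RPKM left 3. For promoter ncRNAs, 19 passed a fold of 5, 4 a fold of 20, and 5 a fold of 10 with 0.1 added. Intervals wholly above 1 numbered 20 of 21 for mRNAs and 35 of 35 for ncRNAs, on lists that hold only folds of 2.5 and above. Member genes with a peak fell to 13 at scores of at least 40, to 24 within 10 kb of a TSS, and to 16 without the 5 chromosomes rich in peaks, where the median score was 32.74. Counting promoter peaks by distance gave 8 within 1 kb and 21 within 5 kb, and 0 of the promoter class scored at least 40. That 0 holds for the class alone. The Usp36 peak of 89.3 is classed as intron, yet it covers the 250 bases before the gene start. Genes on 2 lists numbered 5 at that score (Fbxl2, Fbxl20, Fbxo47, Trim65 and Usp43) and 5 within 10 kb (Fbxl2, Fbxo47, Rnf112, Trim65 and Usp42). Peaks near an ncRNA candidate numbered 4 by overlap, 4 within 1 kb, 32 within 50 kb and 4 at scores of at least 40. An added constant weighs most on low inputs, and the other settings changed a limit or left peaks out. The cause of the lower median score without the 5 chromosomes was not tested. Matching the mRNA list by accession was not run. No paired analysis was possible because each group has 1 library. The member mRNA folds above 10 all rested on 1 or 2 input reads and have wide intervals. Input reads were not counted this way over the whole list, and depth as a cause was not tested.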
